A study of Rattus norvegicus with 12 samples.

Results

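Antioxidant enzymes, the metallothionein Mt2A and the thioredoxin-binding protein Txnip were followed in rat pancreatic islets after growth restriction in the womb. The 10 genes were chosen by symbol, with the transcript of the highest mean count taken for each. Of the 10, 8 had a row among the 30309 transcripts (25888 symbols) of the count table, each with 1 transcript, and all 8 passed the filter on low counts that left 20733 transcripts. Gpx2 and Gpx3 had no row under those symbols and are not analysed here.

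There were 4 groups of 3 libraries, all from Sprague Dawley islets isolated with collagenase and a density gradient. IUGR stands for intrauterine growth restriction, brought about by tying off both uterine arteries of the dam at embryonic day 18. The groups were IUGR islets of 10-week-old rats, control islets of 10-week-old rats, IUGR islets of 2-week-old rats and control islets of 2-week-old rats. Control litters were culled to 8 pups. Neither the sex of the animals, nor a sham operation of the controls, nor pooling of islets is given in the labels. Library totals, given as 1e6 counts, were 30.4 to 64.2.

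Superoxide, a by-product of respiration, is turned into hydrogen peroxide by superoxide dismutases. Catalase and glutathione peroxidases then remove the peroxide. Rodent beta cells are known for low levels of the peroxide-removing enzymes compared with liver. Metallothioneins are small cysteine-rich proteins that bind zinc and copper, and Txnip binds thioredoxin and keeps it from reducing its targets. The transcription factor NRF2, held back by KEAP1, turns on Nqo1, Hmox1 and many glutathione and thioredoxin genes.

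Islet markers were present in all groups. The 13 of 15 listed endocrine genes found in the table took 23.4% ± 0.702 of counts in IUGR islets and 7.89% ± 3.72 in control islets at 10 weeks, and 8.70% ± 1.05 in IUGR islets and 4.78% ± 2.46 in control islets at 2 weeks (SD, n = 3 each). None of the 13 was at 0 in any group. Acinar cells, which make digestive enzymes, contributed unequally: 23 acinar markers took 1.32% ± 0.816 of counts in IUGR and 32.8% ± 17.1 in control libraries at 10 weeks, and 6.26% ± 2.35 in IUGR and 27.0% ± 10.9 in control libraries at 2 weeks (SD, n = 3 each). Among the 10-week controls the share was 40.8% in replicate 1 (95% Wilson interval 40.75 to 40.77), 13.1% in replicate 2 (13.14 to 13.16) and 44.6% in replicate 3 (44.56 to 44.58), with intervals that cover counting error only. None of the acinar markers was at 0 in any group. In islets measured in bulk, fewer cells of a type and less RNA per cell cannot be told apart. A second fit held the mean acinar marker level as a covariate.

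At 10 weeks IUGR islets had less Mt2A, Txnip, Gpx1 and Cat and more Sod1 than control islets, while Sod2, Hmox1 and Nqo1 did not pass the test. These were 5 of 8 genes called at an adjusted p under 0.05 (edgeR), beside 27.9% of all transcripts called in that comparison. Of the 8, 1 was higher, beside 12.4% of all transcripts, and 4 were lower, beside 15.5%. In CPM scaled by each library's TMM factor, the 3 libraries of each group did not overlap for 5 of the 8 genes, beside 40.2% of all transcripts. Mt2A was 0.0739 times and Txnip 0.218 times its control level. The median log2 fold change was -0.46 over the 8 genes and -0.01 over all transcripts tested. At 2 weeks 0 of the 8 passed, beside 3.88% of all transcripts (1.66% higher and 2.21% lower), although 4 had an unadjusted p under 0.05, and DESeq2 passed 2 of them, Cat and Txnip. On that scale groups did not overlap at 2 weeks for 3 of the 8 (Gpx1, Cat and Txnip), beside 38.7% of all transcripts. Once the acinar covariate was added, the calls of Mt2A and Sod1 at 10 weeks held and those of Cat, Gpx1 and Txnip did not. Acinar shares of IUGR and control libraries did not overlap at either age, so that fit cannot tell an acinar part from an IUGR effect for any of these genes.

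**Figure D1:**
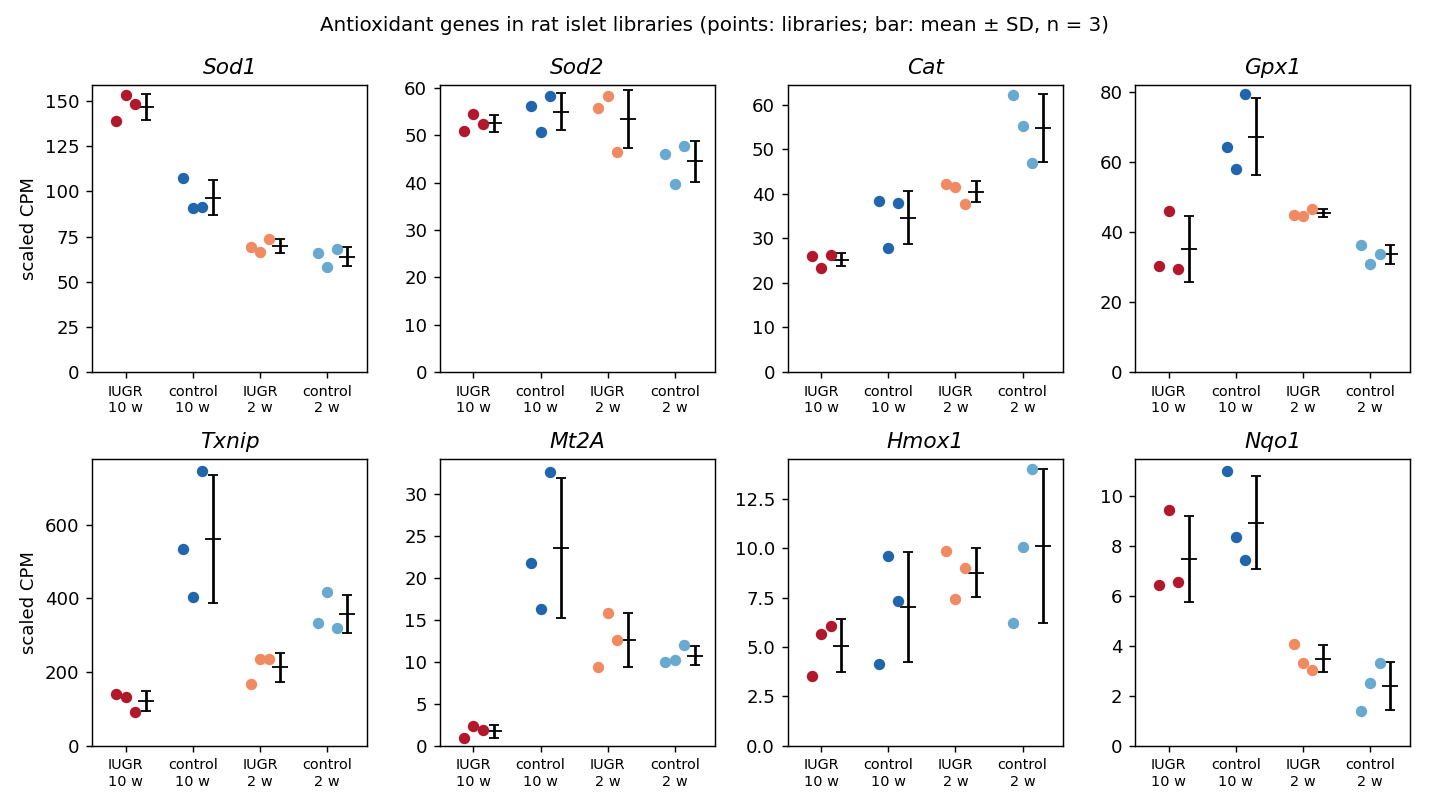
Levels of the 8 genes as CPM scaled by each library's TMM factor, with 1 panel per gene and 1 point per library; black bars give mean ± SD (n = 3). Mt2A lies between 0.918 and 2.42 scaled CPM in 10-week IUGR libraries and at 9.37 or above in every other library.

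Sod1 encodes the copper-zinc superoxide dismutase of the cytosol. Its level was 139, 153 and 148 scaled CPM in IUGR islets at 10 weeks, against 108, 90.9 and 91.5 in control islets of that age. Younger rats had 69.1, 66.3 and 73.9 in IUGR islets and 65.7, 57.9 and 68.1 in control islets. Every 10-week IUGR library was above every 10-week control library, and both 10-week groups were above all 2-week libraries, whose 2 groups overlapped. In the 10-week comparison Sod1 rose, with a log2 value of 0.60 ± 0.10 (edgeR, adjusted p = 0.00242, with ± giving standard errors for log2 values throughout, 3 libraries in each group). Once the acinar covariate was added, the value was 0.83 ± 0.23 (adjusted p = 0.0467). At 2 weeks it was 0.13 ± 0.10 (adjusted p = 0.407). With age Sod1 rose in IUGR islets (log2 fold change 1.07 ± 0.10, adjusted p = 1.02e-05) and in control islets (0.60 ± 0.10, adjusted p = 0.00132).

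Sod2, the manganese superoxide dismutase of mitochondria, had 50.9, 54.5 and 52.3 scaled CPM in IUGR and 56.1, 50.7 and 58.3 in control islets at 10 weeks, and 55.7, 58.2 and 46.5 in IUGR and 46.0, 39.7 and 47.8 in control islets at 2 weeks. IUGR and control libraries overlapped at both ages. The log2 fold change of IUGR over control was -0.07 ± 0.10 at 10 weeks (adjusted p = 0.671, approximate 95% interval -0.27 to 0.14) and 0.27 ± 0.10 at 2 weeks (adjusted p = 0.130). In control islets Sod2 rose with age by 0.31 ± 0.10 (adjusted p = 0.0432), a call that 13 of 21 alternative settings did not keep, among them leaving out 10-week control replicate 1 (0.27, adjusted p = 0.110) or 3 (0.28, adjusted p = 0.103) or 2-week control replicate 2 (0.23, adjusted p = 0.154). Within each library, the count of Sod1 divided by that of Sod2, which does not depend on library scaling, was 2.73 to 2.83 in IUGR and 1.57 to 1.92 in control libraries at 10 weeks. At 2 weeks this ratio was 1.14 to 1.59 in IUGR and 1.43 to 1.46 in control libraries.

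Cat encodes catalase, the peroxisomal enzyme that splits hydrogen peroxide. Its level was 25.9, 23.5 and 26.2 scaled CPM in IUGR islets at 10 weeks, against 38.3, 27.9 and 37.9 in control islets. The 2-week levels were 42.1, 41.6 and 37.8 in IUGR islets, against 62.3, 55.3 and 47.0 in control islets. IUGR libraries were below control libraries at both ages without overlap. Cat fell at 10 weeks (log2 fold change -0.46 ± 0.13, adjusted p = 0.0283), while the 2-week value of -0.44 ± 0.13 did not pass (adjusted p = 0.0775). It passed in 4 of 21 alternative settings, among them without 10-week control replicate 2 (-0.49, adjusted p = 0.0283) and without 2-week control replicate 3 (-0.54, adjusted p = 0.0381). The 10-week call was lost without control replicate 1 (-0.34, adjusted p = 0.0999), without control replicate 3 (-0.39, adjusted p = 0.122) and without any 1 of the 10-week IUGR libraries (adjusted p = 0.0592 to 0.0907), and the value was 0.13 ± 0.28 (adjusted p = 0.778) with the acinar level as a covariate. Without both control libraries of high acinar share it was -0.12 ± 0.15 (adjusted p = 0.589). Control replicate 2, which had the lowest acinar share of its group, also had the lowest Cat. What set the Cat level of that library was not tested. With age Cat fell in IUGR islets (-0.68 ± 0.13, adjusted p = 0.00130) and in control islets (-0.66 ± 0.13, adjusted p = 0.00412), and both calls held in all 21 alternative settings.

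Gpx1, the cytosolic glutathione peroxidase, which carries selenium, was 30.3, 46.1 and 29.4 scaled CPM in IUGR islets at 10 weeks, against 64.4, 58.1 and 79.4 in control islets. Levels at 2 weeks were 45.0, 44.5 and 46.7 in IUGR islets, against 36.5, 31.0 and 33.8 in control islets. On this scale the groups did not overlap at either age, with IUGR libraries lower at 10 weeks and higher at 2 weeks. Without the TMM factors, Gpx1 counts divided by library totals overlapped between the groups at 10 weeks. Gpx1 fell at 10 weeks, with a log2 value of -0.93 ± 0.17 (adjusted p = 0.00407). The 2-week value was 0.43 ± 0.17 (adjusted p = 0.130). Once the acinar covariate was added, the 10-week value was -0.14 ± 0.31 (adjusted p = 0.788). In control islets Gpx1 rose with age (0.996 ± 0.169, adjusted p = 0.00167), and in IUGR islets the change with age was -0.37 ± 0.17 (adjusted p = 0.0835). Without IUGR replicate 2 at 10 weeks, whose Gpx1 was above that of the other two, this fall passed (-0.60, adjusted p = 0.00336). The count of Gpx1 divided by that of Gpx4, the peroxidase of membrane lipids, was 0.801 to 1.16 in IUGR and 1.55 to 1.96 in control libraries at 10 weeks, and 1.35 to 1.41 in IUGR and 1.03 to 1.26 in control libraries at 2 weeks.

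Txnip is raised by glucose in beta cells and, when abundant, favours their death. Its level was 142, 133 and 91.9 scaled CPM in IUGR islets at 10 weeks, against 533, 405 and 747 in control islets. Levels at 2 weeks were 167, 235 and 237 in IUGR islets, against 334, 417 and 321 in control islets. On this scale IUGR libraries were below control libraries at both ages without overlap. Without the TMM factors, Txnip counts divided by library totals overlapped between the groups at 2 weeks. Txnip fell at 10 weeks, with a log2 value of -2.20 ± 0.25 (adjusted p = 0.000807). At 2 weeks the value was -0.75 ± 0.24 (adjusted p = 0.0879), and it passed without 10-week control replicate 2 (-0.80, adjusted p = 0.0426). The 10-week call held with each library left out and without both control libraries of high acinar share (-1.71 ± 0.26, adjusted p = 0.00399). Once the acinar covariate was added, the value was -1.14 ± 0.49 (adjusted p = 0.149). Within the 10-week controls the lowest Txnip stood in replicate 2 and the highest in replicate 3, the libraries with the lowest and highest acinar share. The 2-week controls did not keep that order: Txnip was 417 in replicate 2 at an acinar share of 21.1%, and 334 in replicate 1 at 39.6%. What set these orders was not tested. With age Txnip fell in IUGR islets (-0.80 ± 0.24, adjusted p = 0.0157). That call was lost without IUGR replicate 3 at 10 weeks (-0.63, adjusted p = 0.0652), without IUGR replicate 2 (-0.72, adjusted p = 0.0530) or 3 (-0.72, adjusted p = 0.0535) at 2 weeks and with the acinar covariate (-0.42, adjusted p = 0.203). In control islets the change was 0.65 ± 0.24 (adjusted p = 0.0604), and it passed without control replicate 2 at 10 weeks (0.84, adjusted p = 0.0185).

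Txn1, the cytosolic thioredoxin that Txnip binds, had a log2 fold change of -0.15 ± 0.12 at 10 weeks (adjusted p = 0.364), and Arrdc4, a related arrestin-domain gene that glucose also raises, had -0.09 ± 0.20 (adjusted p = 0.775). The count of Txnip divided by that of Txn1 was 2.22 to 3.62 in IUGR and 9.36 to 14.996 in control libraries at 10 weeks, and 3.39 to 5.17 in IUGR and 6.18 to 10.3 in control libraries at 2 weeks. Mlxipl encodes ChREBP, a glucose-responsive factor known to act on Txnip. Mlxipl rose at 10 weeks (0.60 ± 0.17, adjusted p = 0.0229) and fell at 2 weeks (-0.71 ± 0.16, adjusted p = 0.0479). Mlxip, the related factor MondoA, fell at both ages (-0.98 ± 0.17, adjusted p = 0.00305 at 10 weeks, and -0.87 ± 0.16, adjusted p = 0.0344 at 2 weeks). None of these 4 calls passed with the acinar covariate (adjusted p = 0.147 to 0.842).

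**Figure D2:**
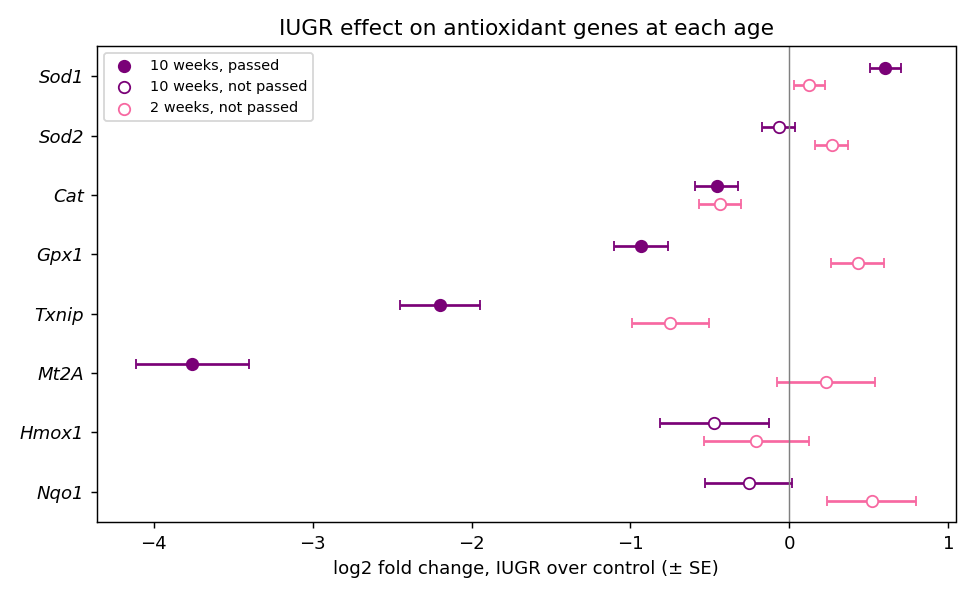
Log2 fold change of IUGR over control (x axis, ± SE, n = 3 per group) for each gene at 10 weeks and at 2 weeks; filled points passed an adjusted p of 0.05. The 10-week values span -3.76 for Mt2A to 0.60 for Sod1, and none of the 2-week values is filled.

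Mt2A had the largest difference of the 8 genes at 10 weeks, and its promoter is shown beside that of Mt1, another metallothionein, because metal response elements are the best known control of both genes. Metal-responsive transcription factor 1, encoded by Mtf1, turns on metallothioneins through metal response elements. The sequences are the 250 bases before the gene starts from RefSeq on GRCr8 (Mt2A chr19:10838709-10838958 and Mt1 chr19:10832976-10833225, both minus strand), written 5′ to 3′ on the gene's strand. Capitals mark matches to the core of that element, searched as TGCACNC and TGCGCNC on both strands.
Mt2A: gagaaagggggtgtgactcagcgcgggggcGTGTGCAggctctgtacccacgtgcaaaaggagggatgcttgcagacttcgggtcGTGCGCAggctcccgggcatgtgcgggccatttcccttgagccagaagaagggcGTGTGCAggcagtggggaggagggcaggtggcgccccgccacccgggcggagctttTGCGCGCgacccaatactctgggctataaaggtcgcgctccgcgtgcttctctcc
Mt1: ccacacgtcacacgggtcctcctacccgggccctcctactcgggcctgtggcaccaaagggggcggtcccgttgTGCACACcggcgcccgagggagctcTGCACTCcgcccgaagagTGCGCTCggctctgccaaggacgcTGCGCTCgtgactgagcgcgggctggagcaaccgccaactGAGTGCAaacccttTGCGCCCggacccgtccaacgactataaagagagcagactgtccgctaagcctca

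The Mt2A window held 4 matches and the Mt1 window 6. Of 27457 promoter windows of that length, 21.2% held at least 1 match, 0.277% at least 4 and 0.0219% at least 6. The nearest match to the start lay 55 to 49 bases before it in both genes. Sod1, Sod2, Cat, Gpx1 and Nqo1 had no match in their windows. The core of the NRF2-bound antioxidant response element, searched as TGACNNNGC and TGAGNNNGC on both strands, was found once each in Mt2A, Mt1, Sod2 and Gpx1 and not in Sod1, Cat or Nqo1, beside 22.8% of all windows. Txnip and Hmox1 had no promoter entry and were searched for neither core. A match describes the letters only.

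Mt2A had 0.918, 2.42 and 1.85 scaled CPM in IUGR islets at 10 weeks, against 21.8, 16.3 and 32.6 in control islets. These rest on 33, 97 and 75 counts in IUGR libraries and 689, 694 and 894 in control libraries. At 2 weeks the level was 9.37, 15.8 and 12.6 in IUGR islets and 9.96, 10.2 and 12.1 in control islets, which overlapped. All 10-week IUGR libraries were below, and all 10-week control libraries above, every 2-week library. Mt2A fell at 10 weeks, with a log2 value of -3.76 ± 0.36 (adjusted p = 0.000496), and at 2 weeks the value was 0.23 ± 0.31 (adjusted p = 0.647). The 10-week call held in all 21 alternative settings, at -3.21 ± 0.37 (adjusted p = 0.00126) without both control libraries of high acinar share and at -2.97 ± 0.73 (adjusted p = 0.0331) with the acinar level as a covariate. With age Mt2A fell in IUGR islets (-2.86 ± 0.35, adjusted p = 5.79e-05). It rose in control islets (1.13 ± 0.31, adjusted p = 0.0183), a call lost without control replicate 3 at 10 weeks (0.85, adjusted p = 0.0635), without control replicate 1 (1.08, adjusted p = 0.0511) or 2 (1.09, adjusted p = 0.0615) at 2 weeks, and without both control libraries of high acinar share (0.60, adjusted p = 0.281).

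Mt1, another metallothionein, had 6.18, 6.63 and 4.87 scaled CPM in IUGR islets at 10 weeks, against 44.3, 16.2 and 64.4 in control islets. It fell at 10 weeks (log2 fold change -2.82 ± 0.46, adjusted p = 0.00253). With the acinar level as a covariate its value was 0.08 (adjusted p = 0.944), where that of Mt2A was -2.97. At 2 weeks Mt1 had 12.6, 22.4 and 24.1 scaled CPM in IUGR islets, against 43.3, 30.7 and 23.8 in control islets (-0.72 ± 0.42, adjusted p = 0.273). The count of Mt2A divided by that of Mt1 was 0.149 to 0.381 in IUGR and 0.493 to 1.01 in control libraries at 10 weeks, and 0.522 to 0.746 in IUGR and 0.230 to 0.508 in control libraries at 2 weeks. The metallothioneins are near copies of each other, so the split of reads between them is uncertain. Of 8 metallothionein and zinc genes tested, 3 fell and 1 rose at 10 weeks (median -0.07), 50% called beside 27.9% of all transcripts. At 2 weeks none passed, beside 3.88% of all transcripts. The zinc importer Slc39a8 (-3.66 ± 0.45, adjusted p = 0.00106) and the zinc importer Slc39a1 (-0.55 ± 0.09, adjusted p = 0.00259) fell, while Mtf1 rose (0.37 ± 0.12, adjusted p = 0.0356). With the acinar covariate these values were -0.998, -0.657 and -0.03 and none passed (adjusted p = 0.0765 to 0.957).

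**Figure D3:**
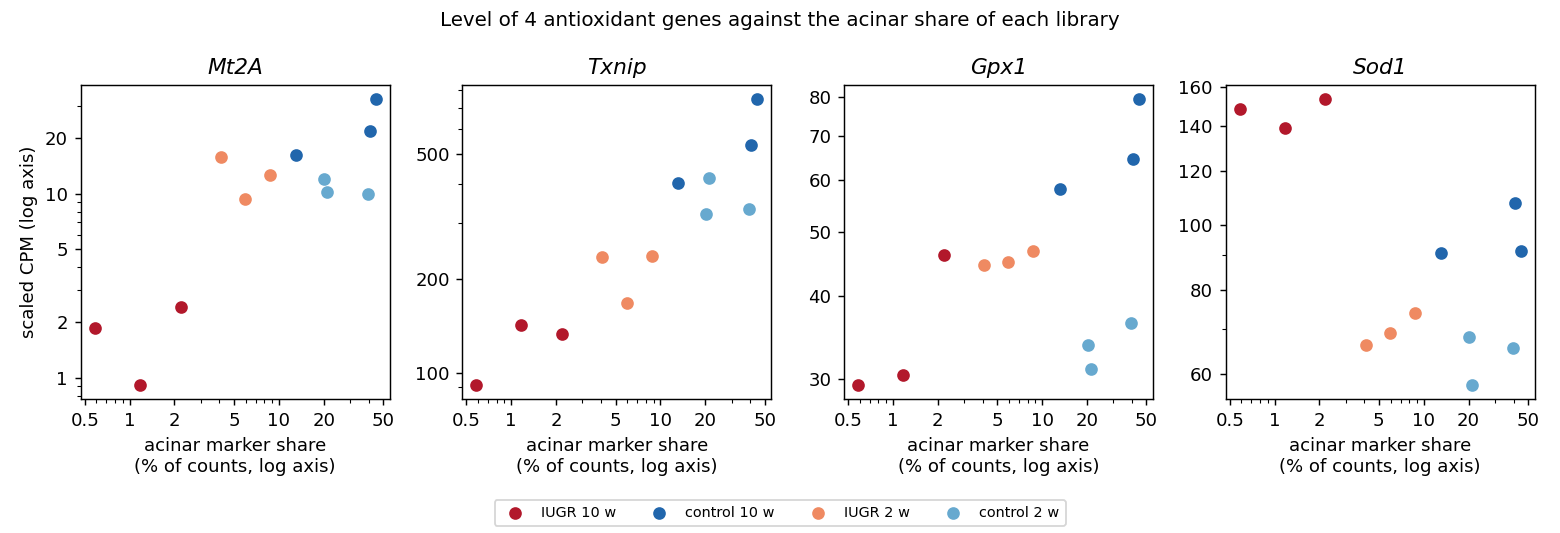
Scaled CPM of Mt2A, Txnip, Gpx1 and Sod1 (y axes, log) against the share of counts in acinar markers in the same library (x axes, log), 12 libraries coloured by group. The 10-week IUGR libraries have the lowest acinar shares. The 2-week libraries have Mt2A between 9.37 and 15.8 at acinar shares from 4.08% to 39.6%. In the 10-week controls Mt2A is 16.3, 21.8 and 32.6 at shares of 13.15%, 40.76% and 44.57%.

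Hmox1 and Nqo1 are classical targets of NRF2. Hmox1, heme oxygenase 1, which breaks down heme, had 3.53, 5.65 and 6.05 scaled CPM in IUGR islets at 10 weeks, against 4.12, 9.64 and 7.34 in control islets. At 2 weeks it had 9.89, 7.45 and 9.001 in IUGR islets and 6.24, 10.1 and 14.02 in control islets. The groups overlapped at both ages, and Hmox1 did not pass in any of the comparisons as reported. The IUGR over control value was -0.47 ± 0.34 at 10 weeks (adjusted p = 0.331, approximate 95% interval -1.15 to 0.20) and -0.21 ± 0.33 at 2 weeks (adjusted p = 0.711). Over the 21 alternative settings the 10-week value of Hmox1 ran from -1.83 to -0.14, beyond that interval. Its change with age was -0.79 ± 0.34 in IUGR islets (adjusted p = 0.0685), where the groups did not overlap and 6 of 21 alternative settings passed, and -0.52 ± 0.34 in control islets (adjusted p = 0.252). Of 13 macrophage markers, cells known to make Hmox1, 4 fell at 10 weeks and none rose, 30.8% called beside 27.9% of all transcripts. Their summed level was 61.5 to 95.7 scaled CPM in IUGR and 76.9 to 194 in control libraries, which overlapped, with none at 0. Their part in the result was not tested.

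Nqo1, which reduces quinones, had 6.46, 9.46 and 6.55 scaled CPM in IUGR and 11.03, 8.37 and 7.45 in control islets at 10 weeks. At 2 weeks it had 4.08, 3.34 and 3.04 in IUGR and 1.40, 2.52 and 3.31 in control islets. IUGR and control libraries overlapped at each age, and every 10-week library was above every 2-week library. The IUGR over control value was -0.26 ± 0.27 at 10 weeks (adjusted p = 0.512) and 0.52 ± 0.28 at 2 weeks (adjusted p = 0.244). Nqo1 rose with age by 1.10 ± 0.28 in IUGR islets (adjusted p = 0.00570) and by 1.88 ± 0.29 in control islets (adjusted p = 0.000952), and both calls held in all 21 alternative settings. At 10 weeks Nfe2l2, which encodes NRF2, had 34.6, 34.3 and 31.8 scaled CPM in IUGR and 37.7, 42.9 and 53.3 in control islets. It was lower in IUGR islets (-0.41 ± 0.12, adjusted p = 0.0255). The 2-week level of Nfe2l2 was 57.5 to 66.2 in IUGR and 57.6 to 62.2 in control islets, above every 10-week library. Keap1 at 10 weeks had 30.1, 30.7 and 30.6 in IUGR and 26.7, 22.6 and 25.2 in control islets and was higher in IUGR islets (0.29 ± 0.08, adjusted p = 0.0192). Neither passed with the acinar covariate (-0.24, adjusted p = 0.596, and 0.54, adjusted p = 0.0743). The count table and the labels do not give the strand setting, and RefSeq places other genes over Cat and Hmox1, so reads of those cannot be told apart from theirs.

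Age differences were read together for the 8 genes. In IUGR islets 5 of 8 passed between 10 and 2 weeks, beside 56.5% of all transcripts called. Of these 2 rose, beside 27.3% of all transcripts, and 3 fell, beside 29.2%, and the ages did not overlap for 6 of the 8, beside 69.4%. In control islets 6 passed, beside 32.3% of all transcripts called. Of these 5 rose, beside 17.2%, and 1 fell, beside 15.1%, and the ages did not overlap for 6 of the 8, beside 41.1%. Sod1 and Nqo1 rose and Cat fell in both. Mt2A passed in both with opposite signs, and Gpx1 and Sod2 rose in control islets with no passing change in IUGR islets. These 2 comparisons share no libraries with each other, but each shares libraries with those between IUGR and control.

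The IUGR effect itself was compared between the ages by the interaction of the same fit. It differed for 4 of the 8 genes, beside 14.3% of all transcripts called, with 1 difference positive, beside 3.97%, and 3 negative, beside 10.4%. The difference, 10 weeks minus 2 weeks, was -3.99 ± 0.47 on the log2 scale for Mt2A (adjusted p = 0.00185), -1.45 ± 0.34 for Txnip (adjusted p = 0.0189), -1.36 ± 0.24 for Gpx1 (adjusted p = 0.00610) and 0.48 ± 0.14 for Sod1 (adjusted p = 0.0398). Mt2A and Gpx1 passed in all 20 alternative settings, with -3.57 ± 0.56 (adjusted p = 0.00232) and -0.96 ± 0.23 (adjusted p = 0.0151) under the acinar covariate. Txnip did not pass with that covariate (-0.89, adjusted p = 0.110), without both control libraries of high acinar share (-0.98, adjusted p = 0.0740), without control replicate 3 at 10 weeks (-1.14, adjusted p = 0.0503) or without IUGR replicate 2 at 2 weeks (-1.37, adjusted p = 0.0506). The Sod1 difference was 0.43 to 0.65 over the alternatives and passed in 7 of 20, and leaving out 1 library ended the call in 10 of 12 cases, all but 10-week control replicate 1 and 2-week control replicate 2. For Cat the difference was -0.02 ± 0.19 (adjusted p = 0.954, approximate 95% interval -0.39 to 0.35).

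**Figure D4:**
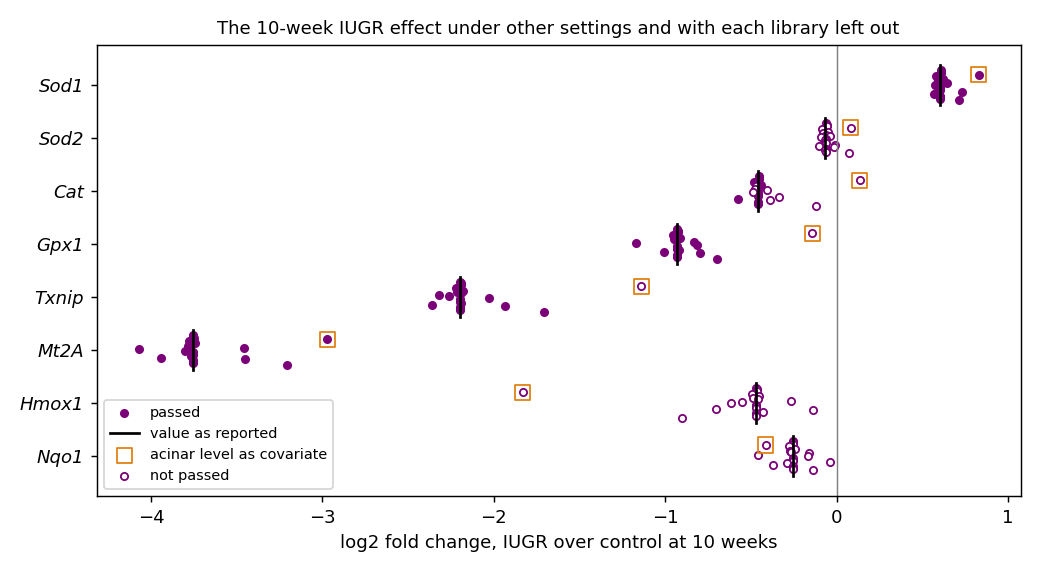
Log2 fold change of IUGR over control at 10 weeks (x axis) for each gene under 21 alternative settings, including each library left out in turn; black lines give the reported value, filled points passed and orange squares mark the acinar level as a covariate. Mt2A and Sod1 are filled at every setting, and the squares of Txnip, Gpx1 and Cat are open at -1.14, -0.14 and 0.13.

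The other genes of these pathways came from 6 lists with 84 entries, of which 82 were tested. At 10 weeks 11 were higher and 26 lower in IUGR islets, 45.1% called beside 27.9% of all transcripts, with a median of -0.16. At 2 weeks 3 were higher and 3 lower, 7.32% beside 3.88%.

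Of 20 glutathione genes, 9 fell and 3 rose at 10 weeks (median -0.44), 60% called beside 27.9% of all transcripts. Those with the smallest p were the transferases Gstp1 (-1.53 ± 0.20, adjusted p = 0.00135) and Gstm2 (-2.12 ± 0.33, adjusted p = 0.00210), which join glutathione to reactive compounds, and Ggt1, which breaks glutathione down outside the cell (-4.66 ± 0.74, adjusted p = 0.00229). Under the acinar covariate they were -0.24, 0.19 and 0.14 and did not pass (adjusted p = 0.531 to 0.915). Gpx4 was at -0.08 ± 0.10 (adjusted p = 0.567). At 2 weeks the endoplasmic reticulum peroxidases Gpx7 (0.67 ± 0.15, adjusted p = 0.0458) and Gpx8 (0.66 ± 0.15, adjusted p = 0.0470) rose and the transferase Mgst2 fell (-1.12 ± 0.25, adjusted p = 0.0453). These 3 calls passed in 9, 9 and 10 of 21 alternative settings. The acinar covariate gave 0.64, 0.40 and -0.74, none passing (adjusted p = 0.313 to 0.436). The 6 genes of these lists called at 2 weeks, with Prdx2, Mlxip and Mlxipl, all lost their calls under that covariate, with only the 2-week libraries, and without any 1 of the 2-week IUGR replicates, 2-week control replicates 1 or 2, or 10-week IUGR replicates 1 or 2.

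Of 15 thioredoxin and peroxiredoxin genes, 3 fell and 1 rose at 10 weeks (median -0.01), 26.7% called beside 27.9% of all transcripts. The 3 that fell were Prdx4, the peroxiredoxin of the endoplasmic reticulum (-3.75 ± 0.59, adjusted p = 0.00221), Txnrd2, the mitochondrial thioredoxin reductase (-1.07 ± 0.27, adjusted p = 0.0160), and Prdx6 (-0.38 ± 0.11, adjusted p = 0.0225). Under the acinar covariate they were 0.54, 0.48 and -0.082 and did not pass (adjusted p = 0.423 to 0.838). Prdx4 had 17.9, 19.4 and 13.5 scaled CPM in IUGR islets, against 294, 61.6 and 330 in control islets, lowest among controls in the library with the lowest acinar share. Prdx1 (-0.01 ± 0.11) and the cytosolic reductase Txnrd1 (0.01 ± 0.09) did not pass (adjusted p = 0.938 and 0.967). At 2 weeks Prdx2, the peroxiredoxin abundant in red blood cells, rose (0.40 ± 0.09, adjusted p = 0.0458), a call that passed in 9 of 21 alternative settings and not with the acinar covariate (0.40, adjusted p = 0.311). Of 7 red blood cell markers none passed at that age, beside 3.88% of all transcripts called. Their summed level was 806 to 1108 scaled CPM in IUGR and 595 to 925 in control libraries, and their part was not tested.

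Of 18 genes around NRF2, heme and iron, 8 fell and 3 rose at 10 weeks (median -0.27), 61.1% called beside 27.9% of all transcripts. At 2 weeks none passed, beside 3.88% of all transcripts. Among those that fell were Bach1, a repressor of NRF2 targets (-1.13 ± 0.19, adjusted p = 0.00297), the biliverdin reductase Blvrb (-0.63 ± 0.11, adjusted p = 0.00368) and Sod3, the secreted superoxide dismutase (-1.30 ± 0.29, adjusted p = 0.00965). Under the acinar covariate they were 0.060, -0.33 and -2.07 and did not pass (adjusted p = 0.0577 to 0.895). Of 12 genes whose products make superoxide or hydrogen peroxide, 1 fell and 2 rose at 10 weeks, 25% called beside 27.9% of all transcripts. Xanthine dehydrogenase, Xdh, fell (-2.50 ± 0.32, adjusted p = 0.00118). Ero1l, an oxidase of the endoplasmic reticulum (0.62 ± 0.10, adjusted p = 0.00277), and the NADPH oxidase Nox1 (0.54 ± 0.18, adjusted p = 0.0481) rose. The Nox1 call passed in 5 of 21 alternative settings. Under the acinar covariate Xdh was at -1.86, Ero1l at 0.45 and Nox1 at 1.005, none passing (adjusted p = 0.117 to 0.257). Of 9 arrestin-domain and glucose-responsive genes, 2 fell and 1 rose at 10 weeks, 33.3% called beside 27.9% of all transcripts. Those that fell were Mlxip and the factor Klf10 (-0.82 ± 0.24, adjusted p = 0.0289, and -0.21, adjusted p = 0.835, under the covariate). Of the 21 other genes named here that passed at 10 weeks, none passed with the acinar covariate, 8 of them with the opposite sign, and 14 passed without both control libraries of high acinar share.

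**Figure D5:**
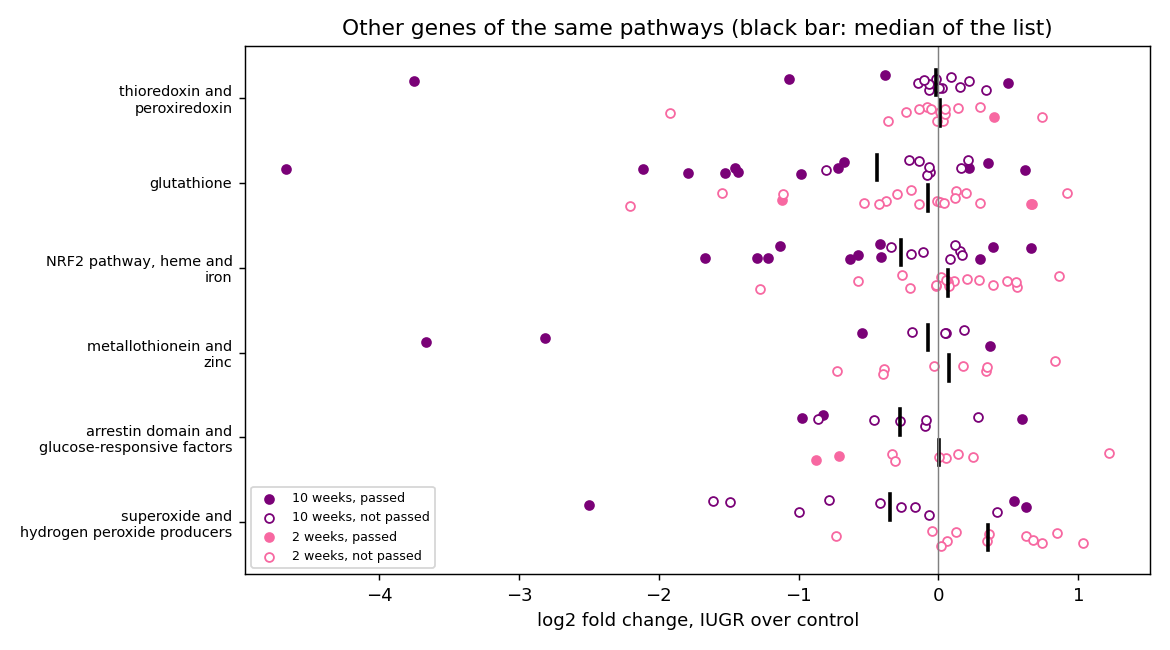
Log2 fold change of IUGR over control (x axis) for 82 other genes in 6 lists (rows) at 10 weeks and at 2 weeks, 1 point per gene; filled points passed and black bars are list medians. The glutathione list has its median at -0.44 at 10 weeks and -0.07 at 2 weeks.

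Markers of other cells, and immediate-early genes, which mark no cell type, also differed at 10 weeks. Of those tested, 22 of 23 acinar, 9 of 13 mesenchymal, 8 of 11 endothelial and 13 of 16 immediate-early genes fell in IUGR islets and none rose. Beside these, 15.5% of all transcripts were lower. Of 12 ductal markers 2 fell and none rose. Of 13 islet endocrine markers 5 rose and none fell, beside 12.4% of all transcripts higher. The summed mesenchymal level was 697 to 941 scaled CPM in IUGR and 1446 to 2672 in control libraries. The summed immediate-early level was 1450 to 1689 in IUGR and 2171 to 4137 in control libraries, with no gene of either list at 0 in a group. Their part in the results was not tested. Of 7 red blood cell markers, cells rich in Cat, Gpx1 and Sod1 products, 4 fell at 10 weeks, beside 15.5% of all transcripts. Their summed levels were 63.7 to 151 scaled CPM in IUGR and 205 to 358 in control libraries. Cat and Gpx1 fell and Sod1 rose at that age, and the part of red blood cells was not tested.

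The genes whose pattern over the 12 libraries was nearest to that of a member were found from log2 CPM centred on each gene's mean, by root mean square distance. Nearest to Mt2A were Chrdl1 (0.49), Slc39a8 (0.51) and Cish (0.55), where Mt2A itself varied by 1.47 around its mean. Nearest to Txnip were Gsta1, Smpdl3a and Slc44a4 (0.36 to 0.38, with 0.86 for Txnip itself). Nearest to Sod1 were Actr10, Eef1e1 and Yme1l1 at 0.06 to 0.07, with 0.48 for Sod1 itself. Nearest to Hmox1 were Art3, Exoc3l1 and Fes (0.26 to 0.28, with 0.54 for Hmox1 itself).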

How the data were processed

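Islet RNA of Sprague Dawley rats was counted in 12 libraries, 3 in each of 4 groups. Per the labels' protocols, only RNA of integrity above 7 was used, ribosomal RNA was removed, and the kit keeps strand. Tools named in the submitters' processing notes are TopHat2 2.0.9 and bedtools, and builds named there are rn5 and mm9, with no role. No source used here states how reads were counted, on which strand or against which annotation. The deposited table holds raw counts for Ensembl rat transcripts, as whole numbers without normalization.

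The deposited counts were tested with edgeR 4.0.16 in R 4.3.3. Transcripts were filtered by filterByExpr, libraries scaled by TMM, and all 4 groups fitted together (quasi-likelihood, robust, two-sided F tests). Benjamini-Hochberg adjustment covered all 20733 transcripts tested, with 0.05 as the threshold. A standard error is the size of the log2 value divided by the root of its F. Scaled CPM use TMM-adjusted library totals. The TMM factors were 1.16 to 1.18 in IUGR and 0.440 to 1.07 in control libraries at 10 weeks. At 2 weeks they were 1.36 to 1.40 in IUGR and 0.771 to 1.15 in control libraries. The labels call the libraries biological replicates without naming animals or litters, so p-values measure only the spread between these libraries, which may be technical. The code was tested on simulated counts.

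Members, gene lists, naming rule and alternatives were chosen with earlier results of these data known. Named were all members, up to 3 passing genes with the smallest p per list in each IUGR comparison, 10 genes whatever their result, and the 3 symbols nearest in pattern to Mt2A, Txnip, Sod1 and Hmox1 (mean log2 CPM of at least 1). Motifs were searched in RefSeq promoters (GRCr8).

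Alternatives were RLE factors, no filter on low counts, DESeq2 1.42.0, a replicate block, an acinar covariate (mean log2 CPM of the acinar markers), acinar markers and the 20 most abundant transcripts left out, 1 transcript per symbol, only the libraries of a comparison, a threshold of 0.1, and each library left out. Dropping both 10-week controls whose acinar share exceeds 40% was added after seeing the data; the 1 control left at that age is assumed to vary like the other groups.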

Additional observations from a re-analysis of the deposited data

Results flagged for a closer look

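The IUGR effect differed between the ages, by the interaction test of edgeR, for 4 of the 8 genes, beside 14.3% of all transcripts. The log2 difference, 10 weeks minus 2 weeks, was -3.99 for Mt2A (adjusted p = 0.00185), -1.45 for Txnip (adjusted p = 0.0189), -1.36 for Gpx1 (adjusted p = 0.00610) and 0.48 for Sod1 (adjusted p = 0.0398). Mt2A and Gpx1 passed in all 20 alternative settings, Txnip in 16, not with the acinar covariate (-0.89, adjusted p = 0.110), and Sod1 in 7. In all 3 libraries of each group, the scaled CPM of Gpx1 was lower in IUGR than in control islets at 10 weeks and higher at 2 weeks.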

How the results depend on the processing

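Depth limits the members with few counts: Mt2A rests on 33 to 97 counts in 10-week IUGR libraries, and Nqo1 on 49 to 169 in 2-week control libraries. There were 3 libraries in each group, and acinar shares did not overlap between IUGR and control libraries at either age. The fit with the acinar covariate therefore cannot separate the acinar level from the IUGR effect. At 10 weeks the 5 members called became 2 with the acinar covariate. At 2 weeks the 0 members called became 2 with DESeq2, 2 at an adjusted p under 0.1 and 1 without both 10-week control libraries of high acinar share, and 0 to 2 with 1 library left out (2 without 10-week control replicate 2). Members whose IUGR effect differed between ages numbered 4, and 2 to 4 with 1 library left out (2 without 10-week control replicate 3 or 2-week IUGR replicate 2). The causes were not tested.

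All transcripts called at 10 weeks numbered 5776, against 2161 with the covariate, 3472 with only the libraries of the comparison and 2971 to 7021 with 1 library left out. At 2 weeks they numbered 804, against 149 with no filter, 3219 with DESeq2, 0 with the covariate, 0 with only the libraries of the comparison, 1807 without both high-share controls, 3021 at an adjusted p under 0.1 and 0 to 2350 with 1 library left out. Of those called at 2 weeks 42.9% were higher, against 55.6% with DESeq2 and 54.3% with the acinar markers and 20 most abundant transcripts left out. For the difference between ages they numbered 2973, against 4863 with the covariate, 4735 at an adjusted p under 0.1 and 1759 to 4983 with 1 library left out. For age in control islets they numbered 6693, against 3448 with only the libraries of the comparison and 3690 without both high-share controls. The difference between ages has no fit on the libraries of 1 comparison.

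These members changed sign. With the covariate Cat was 0.13 and Sod2 0.082 at 10 weeks, the Cat difference between ages was 0.28 and Sod2 with age in IUGR islets was 0.030. Without both high-share controls the Cat difference was 0.29 and Sod2 at 10 weeks 0.074. With 1 library left out the Cat difference ran over -0.12 to 0.15, the Hmox1 difference -0.57 to 0.12, Hmox1 at 2 weeks -0.46 to 0.10 and Sod2 with age in IUGR islets -0.12 to 0.049. Other genes at 10 weeks changed sign with the covariate: Arrdc4 0.10, Bach1 0.060, Ggt1 0.14, Gpx4 0.23, Gstm2 0.19, Mlxipl -0.12, Mt1 0.085, Mtf1 -0.028, Prdx1 0.46, Prdx4 0.54, Txn1 0.40, Txnrd1 -0.18 and Txnrd2 0.48. At 2 weeks Mt1 was 0.64. Without both high-share controls Arrdc4 was 0.050, Gpx4 0.12, Prdx1 0.091 and Txn1 0.0062. Prdx1 was 0.0020 with no filter, and Txnrd1 was -0.015 with abundant transcripts left out and -0.0089 with only the libraries of the comparison. With 1 library left out Arrdc4 ran over -0.20 to 0.16, Gpx4 -0.14 to 0.014, Prdx1 -0.073 to 0.037 and Txnrd1 -0.10 to 0.081.

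Whether the replicate numbers pair the libraries was not settled. Of 18 same-numbered pairs, 8 correlated over 0.1 (-0.137 to 0.478). Each check picked the best match among the 3 libraries of another group, and in 10 of 18 checks that was the library of the same number. With the replicate block 5 members were called at 10 weeks, 0 at 2 weeks, 4 for the difference, 6 for age in IUGR and 5 for age in control islets, and 1223 of all transcripts at 2 weeks.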
